A study of Mus musculus with 6 samples.

Results

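DEAD and DEAH box proteins are helicases that use ATP to bind, unwind or strip RNA. They are named after the amino acid letters of a conserved ATPase motif, motif II, which binds the metal ion needed to split ATP. Different members act at nearly every step of an RNA's life, from ribosome assembly in the nucleolus and splicing to export, translation, storage and decay. The family was taken as every protein-coding mouse gene whose symbol is Ddx or Dhx followed by a number, with an optional final letter for Ddx. This pattern matched 53 genes of the deposited table and its name table. Leaving out 3 interferon-linked ones (Ddx58, Ddx60 and Dhx58) gave 50 members. The deposited table holds 22032 genes. Of these, 49 were listed (all but Ddx4, a germline gene), and 48 had a mean of at least 1 CPM (reads of a gene scaled to library size by the authors) over the libraries and were tested, among 14740 tested genes.

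The name pattern uses no measured value. The family was proposed, and the 3 interferon-linked genes set aside, with the fold changes between shArl4c and shControl known, so the members count as selected on that contrast. The counts over members are therefore a description and test nothing about the family. Each adjusted p belongs to 1 gene and comes from the limma fit over all 14740 genes.

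RNA was sequenced from the mouse cell line mDE6 in 2 groups of 3 libraries: cells with a control hairpin (shControl), and cells with a short hairpin against Arl4c, a small GTP-binding protein (shArl4c). The labels give neither the tissue of the line nor the hairpin sequences. They do not state how many hairpins against Arl4c were used, or that the cultures were separate. The p-values therefore measure the spread between these libraries, which may be technical. Libraries carry the numbers of the table, shControl 1 to 3 and shArl4c 2 to 4, and held 12316770 to 14976113 reads. Arl4c stood at 20.7, 21.0 and 20.1 CPM in shControl and at 6.75, 7.42 and 6.89 CPM in shArl4c. Summed over 8 epithelial markers (7 listed, 1 tested), the level was 6.13 to 7.06 CPM in shControl and 8.19 to 9.58 CPM in shArl4c. Cdh1 had 4, 5 and 4 reads in shControl and 0 in each shArl4c library. Krt19 had 2, 2 and 1 reads and then 16, 10 and 5, and Krt14 had 6, 9 and 13 and then 24, 13 and 13. Krt5, Krt8 and Krt18 had at most 4 reads in any library, and Trp63, the tested marker, did not pass. Over 6 mesenchymal markers, all tested, the summed level was 30349 to 31761 CPM in shControl and 18267 to 19105 CPM in shArl4c. Of these, Col1a1, Col1a2 and Prrx1 fell, Pdgfrb rose 1.12-fold, and Vim and Twist1 did not pass. Over 5 leukocyte markers it was 4.80 to 5.31 and 6.75 to 8.17 CPM. Of these, 2 were tested: Cd68 rose from a mean of 2.79 to 5.77 CPM, and Lyz2, at 1.24 and 1.03 CPM, did not pass. Untested were Cd74, at means of 0.933 and 0.574 CPM, Ptprc, with at most 2 reads in any library, and Adgre1, with at most 4. Over 3 endothelial markers (2 listed, 1 tested) the summed level was 1.08 to 1.74 and 1.07 to 1.67 CPM. The part of these markers in the results was not tested.

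The motif that names the family can be read in the coding sequences of the members. In the main coding transcript of each gene in GENCODE M21 (build GRCm38, used for sequence and length only), 29 members held codons for DEAD, 9 held codons for DEAH and 12 held neither. Of the 29, 28 carry a Ddx name. Dhx29 is the other, and its match lies at bases 3352 to 3363 of a 4095-base coding sequence, farther along than the match of any other member with a single match. The letters were searched anywhere in the protein. Dhx29 also holds a match to a variant spelling, so its DEAD may not be motif II. Of the 9 with DEAH, 8 carry a Dhx name and the other is Ddx11. Among the members with a single match, GATGAAGCAGAC, in 5 members, was the most frequent spelling of DEAD. The stretches below are shown because they let the 2 branches, their variants and the near copies be compared at the site that defines them. They run 5′ to 3′, with the motif II codons in capitals. Ddx18, Ddx20 and Ddx43 hold DEAD, Dhx15 and Dhx40 hold DEAH, and Ddx21, Ddx50, Dhx34 and Dhx36 hold variants that spell neither name.
Ddx18: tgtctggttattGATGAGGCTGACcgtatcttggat
Ddx20: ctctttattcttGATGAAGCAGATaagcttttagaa
Ddx43: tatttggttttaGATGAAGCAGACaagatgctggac
Dhx15: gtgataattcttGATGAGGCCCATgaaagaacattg
Dhx40: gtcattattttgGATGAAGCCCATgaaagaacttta
Ddx21: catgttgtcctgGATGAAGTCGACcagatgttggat
Ddx50: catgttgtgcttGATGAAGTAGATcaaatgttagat
Dhx34: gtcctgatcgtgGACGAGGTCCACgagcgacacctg
Dhx36: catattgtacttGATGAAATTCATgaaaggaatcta
Ddx19a: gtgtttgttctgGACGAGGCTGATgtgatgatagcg
Ddx19b: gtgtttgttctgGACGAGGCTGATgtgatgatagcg
Ddx3x: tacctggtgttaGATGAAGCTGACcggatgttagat
Ddx3y: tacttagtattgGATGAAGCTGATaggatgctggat

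The stretches of Ddx19a and Ddx19b were identical. Over the whole coding sequence these 2 genes shared 93.4% of aligned bases, Ddx3x and Ddx3y 83.9%, and Ddx39 and Ddx39b 80.5%. Reads that fall in shared stretches could have gone to either gene of such a pair, so their separate levels carry that uncertainty. Ddx5 and Ddx17 shared 64.1% and Ddx21 and Ddx50 58.2%.

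Levels differed widely between members. Per kilobase of the main transcript, Ddx5, a cofactor of splicing and transcription, was the highest in shControl at 210 ± 2.004 CPM per kb (SD, n = 3), followed by its relative Ddx17 at 149 ± 3.06 CPM per kb. Ddx3x, which helps translation start on structured mRNAs, stood at 96.95 ± 0.501 CPM per kb. Dhx15, which takes spent spliceosomes apart, stood at 82.2 ± 1.06 CPM per kb, and Ddx39b, which loads the export machinery on mRNA, at 72.95 ± 2.52 CPM per kb. The lowest of the tested members was Ddx43, a gene known from testis and tumours, at 0.844 ± 0.257 CPM per kb. Ddx3y, on the Y chromosome, had 0 to 3 reads per library, no more than the 3 reads that a count of 0 allows. Among the 49 listed members in this order, 22 neighbouring pairs were apart in all 3 shControl libraries, and 26 pairs overlapped. The order rests on 1 chosen transcript per gene.

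**Figure D1:**
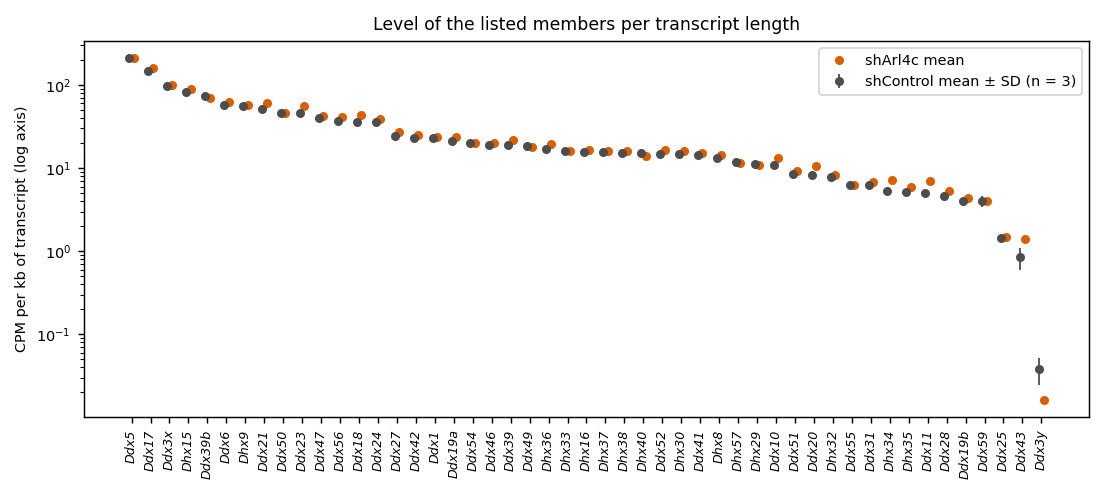
Level of each listed member in CPM per kb of its main transcript (log axis), ordered by shControl; grey points are shControl means with SD (n = 3) and orange points shArl4c means. Ddx5 at 210 CPM per kb leads, and Ddx3y at the right rests on 0 to 3 reads per library.

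In shArl4c, 13 of 48 tested members rose (27.1%) and none fell. Among all tested genes 18.9% rose, 18.0% fell and 36.9% did either (limma, adjusted p under 0.05). The rises were small: 4 members had a mean CPM at least 25% above that of the other group, all 4 higher in shArl4c (8.33%), against 13.1% of all tested genes higher by that measure, 14.0% lower and 27.1% either way. No member had a 2-fold difference, against 5.55% of all tested genes. The median log2 fold change was 0.09 over the members and 0.01 over all tested genes, and 41 members lay above 0 (85.4%, against 51.8% of all tested genes) and 7 below (14.6%, against 48.2%). The groups did not overlap in 27 members, against 46.8% of all tested genes. Of these, 26 were higher in shArl4c (54.2%, against 24.3%) and 1, Dhx40, was lower (2.08%, against 22.5%). Since the contrast was known when the family was chosen, nothing is read from these shares.

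No tool run called a member lower at an adjusted p under 0.05. These fits reuse the same libraries and a family chosen with the contrast known, so they are no independent support. At an unadjusted p under 0.05, limma gave 0 lower members, where 21.2% of all tested genes were lower. On the recovered reads, edgeR called 12 members higher and 0 lower (17.4% and 18.6% of all genes) and had 1 lower at an unadjusted p under 0.05 (22.2%). DESeq2 called 9 members higher and 0 lower (13.6% and 14.3%) and had 0 lower unadjusted (17.8%). With plain CPM, meaning recovered reads scaled to library size alone, limma called 24 members higher and 0 lower (23.2% and 15.9%). By that fit 0 were lower unadjusted (18.7%). With array weights, which let libraries count unequally, limma called 20 members higher and 0 lower (24.7% and 22.0%), and 0 were lower unadjusted (24.8%).

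Library by library, the median difference of the 48 tested members from the shControl mean, on the log2 scale of CPM + 1, was -0.01 to 0.02 in the shControl libraries. It was 0.09, 0.06 and 0.10 in shArl4c 2, 3 and 4, where the median of all tested genes was 0.00, 0.02 and 0.01. The summed level of the listed members was 5414 to 5518 CPM in shControl and 5780 to 5835 CPM in shArl4c, and the groups did not overlap. In bulk RNA this does not tell apart more helicase RNA in each cell from a change in which cells were present. Library shArl4c 3 gave the lowest of the 3 shArl4c values for 27 of the 48 members, including 8 of the 13 that rose. The same count over all tested genes was not made. In that library the median deviation from the shArl4c mean was -0.020 over the members and -0.011 over all tested genes. Without shArl4c 3, 21 members were called higher and 0 lower by limma, where 23.8% and 21.4% of all tested genes were. In that fit 0 members were lower at an unadjusted p under 0.05 (24.6%).

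**Figure D2:**
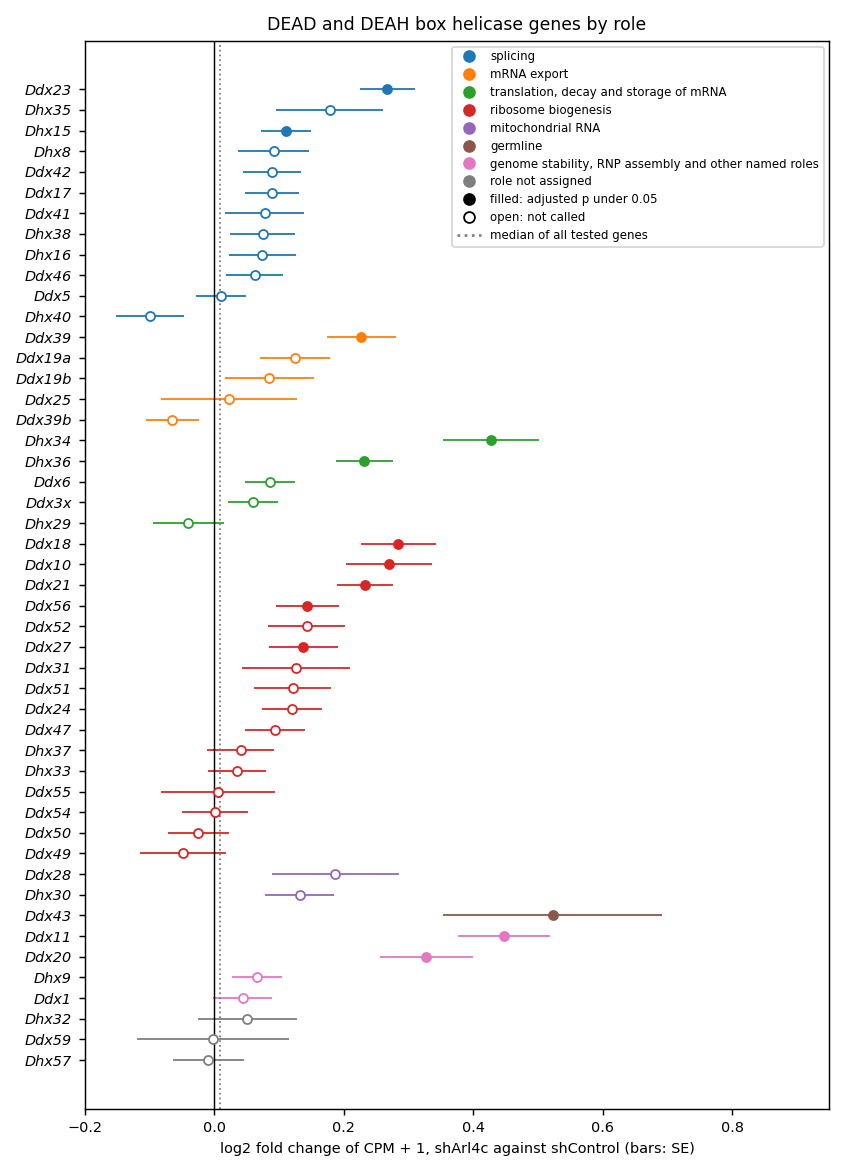
Log2 fold change of CPM + 1, shArl4c against shControl, for the 48 tested members by role, with bars for the SE; filled points passed limma's test at an adjusted p under 0.05 and the dotted line is the median of all tested genes (0.01). The 13 filled points all lie to the right of 0, and Dhx40 lies farthest to the left at -0.10.

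The largest group by role was ribosome biogenesis, with 16 members that mature ribosomal RNA and assemble the subunits in the nucleolus. All 16 were tested: Ddx21, Ddx18, Ddx10, Ddx56 and Ddx27 rose, none fell, and 11 missed the threshold. Of all tested genes, 18.9% rose and 18.0% fell. The median log2 fold change of the 16 was 0.12. Across the alternatives the count of 5 ran from 3 to 9. Ddx21, which couples the making and processing of ribosomal RNA, stood at 244, 237 and 246 CPM in shControl and at 301, 276 and 279 CPM in shArl4c. All shArl4c libraries were above all shControl libraries, by 1.18-fold in the means (log2 fold change 0.23, SE 0.04, limma adjusted p = 0.000256). Ddx18, needed for the large subunit, stood at 77.7, 78.9 and 85.8 CPM in shControl and at 106, 90.3 and 99.7 CPM in shArl4c. Its groups did not overlap, but shArl4c 3 came close to shControl 3, and the means differed 1.22-fold (log2 fold change 0.28, SE 0.06, limma adjusted p = 0.000848).

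Ddx10, an early pre-ribosome factor, had 35.6, 30.9 and 36.3 CPM in shControl and 42.25, 41.4 and 40.6 CPM in shArl4c. The shArl4c libraries lay close together and above the shControl ones (1.21-fold, log2 fold change 0.27, limma adjusted p = 0.00312). Ddx56 and Ddx27, both of large subunit assembly, rose less: Ddx56 went from 73.0 ± 1.17 to 80.7 ± 3.73 CPM (limma adjusted p = 0.0266) and Ddx27 from 66.7 ± 1.503 to 73.6 ± 4.71 CPM (limma adjusted p = 0.0497). Ddx27 lost its call in 12 of 18 alternatives and Ddx56 in 6 of 18. The 11 others had log2 fold changes from -0.05 (Ddx49) to 0.14 (Ddx52). Among them, Ddx24, Ddx52 and Ddx47 had shArl4c values above all shControl values but adjusted p of 0.0511, 0.0687 and 0.131 by limma. Of all tested genes, 24.3% were higher without overlap. Ddx54 and Ddx55 had log2 fold changes of 0.00 and 0.01. Reads of Ddx49 may be shared with Homer3, which overlaps 29.9% of its annotated exon bases on the opposite strand.

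**Figure D3:**
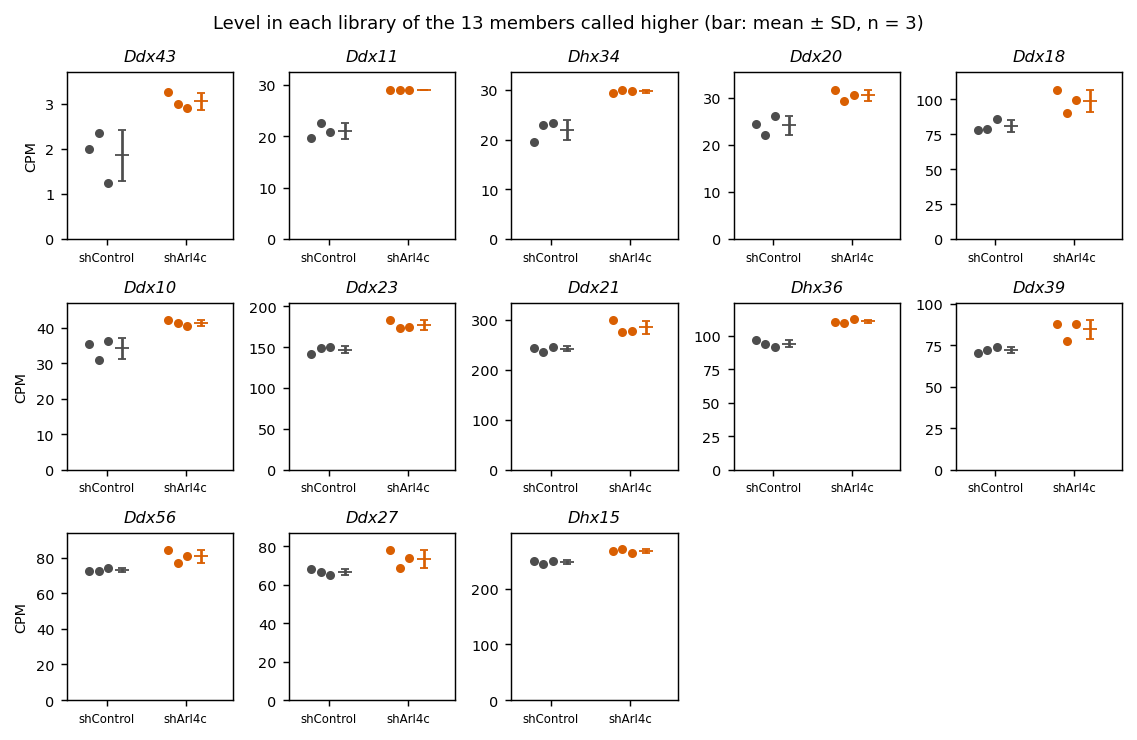
CPM in each library of the 13 members that passed limma's test, ordered by fold, with shControl in grey, shArl4c in orange and the mean ± SD (n = 3) beside the points. In all 13 panels the lowest shArl4c library lies above the highest shControl library, with the smallest gaps relative to the level in Ddx27.

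Spliceosome helicases were the second largest group. All 12 were tested: Ddx23 and Dhx15 rose, none fell, and 10 missed the threshold, where 18.9% of all tested genes rose and 18.0% fell. The median log2 fold change of the 12 was 0.08. Ddx23, the U5 particle helicase that helps U6 replace U1 at the 5′ splice site, stood at 142, 149 and 150 CPM in shControl and at 184, 173 and 175 CPM in shArl4c. The groups were well apart (1.21-fold, log2 fold change 0.27, SE 0.04, limma adjusted p = 5.47e-05). Dhx15 stood at 249.3, 244 and 249.4 CPM in shControl and at 267, 271 and 265 CPM in shArl4c. The groups did not overlap (1.08-fold, limma adjusted p = 0.0305), but the call was lost in 7 of 18 alternatives. The helicases of the single splicing steps, Dhx16, Dhx38 and Dhx8, had log2 fold changes of 0.07, 0.08 and 0.09 and did not pass. Neither did Ddx46 (0.06) and Ddx42 (0.09), which act on the U2 particle. Dhx40 had the lowest log2 fold change of the family, at 60.9, 55.3 and 57.5 CPM in shControl and 54.7, 53.3 and 53.9 CPM in shArl4c. Its groups did not overlap, but it did not pass (log2 fold change -0.10, SE 0.05, limma adjusted p = 0.160). Ddx17, Ddx42, Dhx35, Dhx16 and Ddx41 were higher in shArl4c without overlap and did not pass either. Their log2 fold changes ran from 0.07 (Dhx16) to 0.18 (Dhx35). Without overlap, 24.3% of all tested genes were higher and 22.5% lower.

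Among 5 members of mRNA export, Ddx39 (named Ddx39a in RefSeq) rose and 4 missed the threshold, where 18.9% of all tested genes rose. The median log2 fold change of the 5 was 0.09. Ddx39 stood at 70.0, 72.2 and 73.7 CPM in shControl and at 88.0, 77.7 and 88.0 CPM in shArl4c (1.17-fold, log2 fold change 0.23, SE 0.05, limma adjusted p = 0.00231). All shArl4c values were higher, and shArl4c 3 was the nearest to shControl. Exons of Adgre5 overlap 17.4% of the annotated exon bases of Ddx39 on the opposite strand. Its paralog Ddx39b stood at 201, 207 and 215 CPM in shControl and at 198, 196 and 202 CPM in shArl4c. These values overlapped (log2 fold change -0.06, SE 0.04, limma adjusted p = 0.252). Per library, the ratio of Ddx39 to Ddx39b in CPM was 0.349, 0.348 and 0.343 in shControl and 0.445, 0.397 and 0.435 in shArl4c, without overlap.

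Ddx19a and Ddx19b release mRNA from its export proteins at the nuclear pore. Ddx19a stood at 52.5, 54.5 and 57.2 CPM in shControl and at 61.9, 57.3 and 60.1 CPM in shArl4c (log2 fold change 0.12, SE 0.05, limma adjusted p = 0.0792). Ddx19b stood at 25.2, 26.2 and 29.3 CPM in shControl and at 28.6, 28.6 and 28.5 CPM in shArl4c (log2 fold change 0.09, SE 0.07, limma adjusted p = 0.376). The Ddx19a groups were barely apart and those of Ddx19b overlapped. Their ratio, 1.95 to 2.08 in shControl and 2.01 to 2.16 in shArl4c, overlapped too. Ddx25, a relative known from testis, had a log2 fold change of 0.02 and overlapped between the groups.

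**Figure D4:**
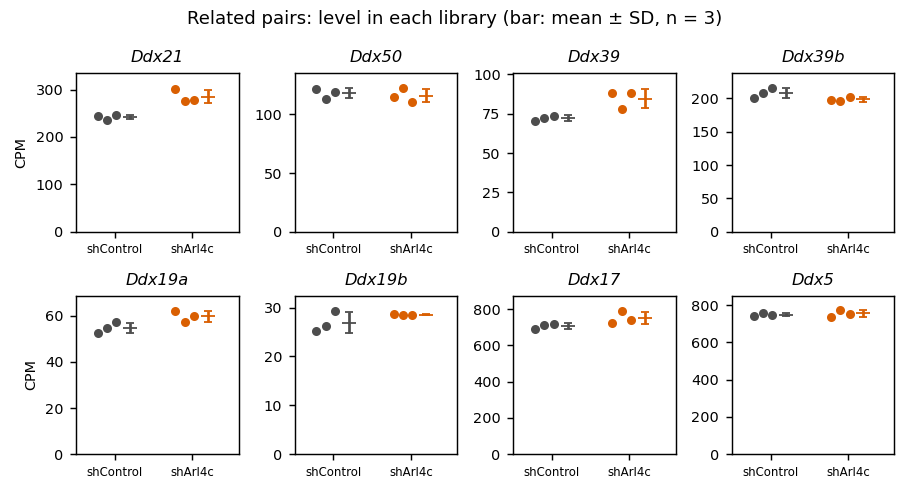
CPM in each library of 4 pairs of related members, shControl in grey and shArl4c in orange, with the mean ± SD (n = 3) beside the points. Ddx21 and Ddx39 are higher in every shArl4c library while the libraries of their relatives Ddx50 and Ddx39b overlap between the groups.

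Of 6 members of translation, storage and decay of mRNA, 5 were tested: Dhx34 and Dhx36 rose and 3 missed the threshold. The share that rose among all tested genes was 18.9%. The median log2 fold change of the 5 was 0.09. Dhx34, a factor of nonsense-mediated decay, stood at 19.6, 22.9 and 23.3 CPM in shControl and at 29.4, 29.9 and 29.9 CPM in shArl4c. The shArl4c libraries agreed closely and lay above every shControl library (1.36-fold, log2 fold change 0.43, SE 0.07, limma adjusted p = 0.000131). Dhx36, which unwinds G-quadruplexes, stood at 97.2, 93.9 and 91.5 CPM in shControl and at 110, 110 and 112 CPM in shArl4c (1.18-fold, log2 fold change 0.23, limma adjusted p = 0.000321). Here too the groups were apart. Ddx6, a core protein of processing bodies, went from 353 ± 4.61 to 375 ± 8.06 CPM with no overlap but did not pass (limma adjusted p = 0.0907). Ddx3x stood at 454, 457 and 453 CPM in shControl and at 487, 465 and 470 CPM in shArl4c, also without overlap (log2 fold change 0.06, SE 0.04, limma adjusted p = 0.256). Dhx29, which helps ribosomes scan structured leaders, had a log2 fold change of -0.04.

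Both mitochondrial members, which take part in mitochondrial ribosome assembly, missed the threshold. Dhx30 stood at 68.1, 64.1 and 70.6 CPM in shControl and at 75.4, 70.2 and 76.8 CPM in shArl4c (log2 fold change 0.13, SE 0.05, limma adjusted p = 0.0590). Here shArl4c 3 lay below shControl 3. Ddx28 stood at 10.3, 10.4 and 10.8 CPM in shControl and at 11.98, 10.9 and 13.3 CPM in shArl4c (log2 fold change 0.19, SE 0.10, limma adjusted p = 0.152), a narrow gap between the groups.

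Members with other roles included 2 of the larger rises. Ddx11, a DNA helicase of sister chromatid cohesion, stood at 19.6, 22.7 and 20.8 CPM in shControl and at 29.0 CPM in each shArl4c library. The groups were well apart (1.38-fold, log2 fold change 0.45, SE 0.07, limma adjusted p = 4.80e-05). Ddx20, part of the SMN complex that builds spliceosomal particles, stood at 24.4, 22.1 and 26.1 CPM in shControl and at 31.7, 29.2 and 30.7 CPM in shArl4c. Every shArl4c library was higher (1.26-fold, log2 fold change 0.33, SE 0.07, limma adjusted p = 0.00133). Dhx9 (log2 fold change 0.07), a nuclear helicase of double-stranded RNA and R-loops, and Ddx1 (0.04), part of the tRNA ligase complex, did not pass.

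The highest fold of the family was that of its least abundant tested member. Ddx43 stood at 1.99, 2.35 and 1.24 CPM in shControl and at 3.27, 2.998 and 2.91 CPM in shArl4c, or 27, 35 and 15 reads against 45, 40 and 38 reads. The groups were apart (1.64-fold, log2 fold change 0.52, SE 0.17, limma adjusted p = 0.0203), but so few reads give a wide error, and 3 of 17 alternatives lost the call. Dhx32, Dhx57 and Ddx59, given no role here, had log2 fold changes of 0.05, -0.01 and -0.00, and none passed. Dhx32 stood at 23.0, 21.45 and 25.6 CPM in shControl and at 24.8, 23.0 and 24.7 CPM in shArl4c. Dhx57 stood at 57.7, 54.9 and 60.4 CPM in shControl and at 56.1, 60.0 and 55.8 CPM in shArl4c, so both genes overlapped between the groups.

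Paralogs did not always have like values. Beside Ddx39 and Ddx39b, the nucleolar pair Ddx21 and Ddx50 differed: Ddx50 stood at 122, 114 and 119 CPM in shControl and at 115, 122 and 111 CPM in shArl4c, which overlapped (log2 fold change -0.02, SE 0.05). The ratio of Ddx21 to Ddx50 was 2.005, 2.08 and 2.07 in shControl and 2.61, 2.26 and 2.51 in shArl4c, without overlap. For Ddx17 and Ddx5, the ratio was 0.930, 0.940 and 0.958 in shControl and 0.983, 1.02 and 0.981 in shArl4c, also without overlap, with log2 fold changes of 0.09 for Ddx17 and 0.01 for Ddx5, neither past the threshold. These pairs were compared after their values were seen, and their ratios were not tested.

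Genes that act with these helicases, or encode DEAD box or other RNA helicases under other names, were taken from lists. These lists were chosen with earlier results of these data known. Of all tested genes, 18.9% rose and 18.0% fell. Of the 3 DEAD box genes with translation or junction-complex names, Eif4a3, the anchor of the exon junction complex, rose from a mean of 96.7 ± 1.32 CPM to 109 ± 8.96 CPM, or 1.13-fold (limma adjusted p = 0.0184), and Eif4a1 and Eif4a2 did not pass. Eif4a3 lost its call in 6 of 18 alternatives. Among them were the fits without shControl 1, shControl 3, shArl4c 2 or shArl4c 4, each of which called 0 of the 3 genes. Without shArl4c 3, 2 of the 3 were called, where 23.8% of all tested genes were higher. Of 12 other RNA helicases, 11 were tested. Among these 4 rose, none fell and 7 missed the threshold, and the median log2 fold change was 0.11. Mov10, a helicase of RNA silencing and antiviral defence, rose 1.54-fold to 96.7 ± 4.10 CPM (limma adjusted p = 5.55e-09), Ascc3 1.13-fold and the spliceosome helicase Aqr 1.11-fold. Aqr lost its call in 6 of 18 alternatives, and the count of 4 became 2 without shControl 2, shControl 3 or shArl4c 4.

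Of 16 G-patch proteins, which activate DEAH helicases, 4 rose, 1 fell and 11 missed the threshold (median log2 fold change -0.00). Beside these counts, 18.9% of all tested genes rose and 18.0% fell. Gpatch4 rose from a mean of 8.71 ± 0.790 CPM to 12.9 ± 1.20 CPM, or 1.48-fold (limma adjusted p = 0.000611), Gpkow 1.18-fold and Nkrf 1.19-fold, and the 1 that fell was Zgpat (log2 fold change -0.20). Gpkow and Nkrf each lost the call in 3 of 18 alternatives and Zgpat in 4. The count higher became 2 without shControl 2 and 1 without shArl4c 4. The count lower became 0 without shControl 1, shControl 3 or shArl4c 4, 2 without shArl4c 2 and 3 without shArl4c 3. In the fit without shArl4c 3, 21.4% of all tested genes were lower. Of 18 partners of DEAD box helicases, 4 rose, 2 fell and 12 missed the threshold (median log2 fold change 0.04), beside the same shares of 18.9% and 18.0%. Eif4g3, a scaffold that holds the eIF4A helicase, fell from 83.5 ± 1.40 to 69.3 ± 0.390 CPM (log2 fold change -0.27, limma adjusted p = 0.000111), whereas the export adaptor Alyref rose 1.15-fold and Cnot1, the scaffold of the deadenylase complex that Ddx6 binds, 1.11-fold. The count higher in this list became 2 without shControl 1, 1 without shControl 2 and 7 without shArl4c 3. That last fit called 23.8% of all tested genes higher. The count lower became 1 without shControl 3. Cnot1 lost its call in 3 of 18 alternatives and Alyref in 1, and Eif4g3 in none.

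The 3 genes left out are all linked to interferon, and each was higher in shArl4c. Ddx58, which encodes the viral RNA sensor RIG-I, averaged 78.1 ± 1.02 CPM with the control hairpin and 113 ± 2.77 CPM with the other (1.45-fold). Dhx58, which encodes LGP2, averaged 8.76 ± 0.618 and 22.3 ± 2.01 CPM (2.55-fold), and Ddx60 averaged 1.54 ± 0.179 and 4.89 ± 0.982 CPM (3.18-fold). They were set apart with these values known, so no test is given.

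Upstream sequence was searched for short motifs of common promoter factors. RefSeq windows from 250 bases before to 50 after a start (build GRCm38.p6, not the build of the counts) matched 45 of 50 members. No window was matched for Ddx6, Ddx11, Ddx23, Ddx39 and Dhx38. Both strands were searched for 5 motifs, of which none holds the letters of another. The ETS-type motif CCGGAAGT was in the windows of 10 of 45 members (22.2%), of 5.69% of all 17492 protein-coding genes with a window and of 9.42% of the tested genes with one. The E box CACGTG was in 7 members (15.6%, against 8.91% and 11.9%), the NRF1 palindrome in 2 (4.44%, against 1.47% and 2.41%), the CCAAT box in 22 (48.9%, against 42.3% and 43.6%) and the TATA box TATAAA in 4 (8.89%, against 14.8% and 8.77%). Of the members with CCGGAAGT, Dhx34 and Ddx27 rose and the other 8 (Ddx17, Ddx39b, Ddx47, Ddx50, Dhx30, Dhx37, Dhx8 and Dhx9) did not pass. A match is a match of letters and shows no binding.

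The 250 bases upstream are shown for Dhx34, the only one to hold 3 of the 5 motifs among the members that rose and had a window, and for Ddx18, which rose by less and held 1. Capitals mark the motifs. ATTGG is the CCAAT box on the other strand, and the longest run of capitals is the NRF1 palindrome. The Dhx34 window is chr7:16221994-16222243 and the Ddx18 window chr1:121567981-121568230, both on the minus strand of GRCm38.p6 and written 5′ to 3′ along the gene.
Dhx34: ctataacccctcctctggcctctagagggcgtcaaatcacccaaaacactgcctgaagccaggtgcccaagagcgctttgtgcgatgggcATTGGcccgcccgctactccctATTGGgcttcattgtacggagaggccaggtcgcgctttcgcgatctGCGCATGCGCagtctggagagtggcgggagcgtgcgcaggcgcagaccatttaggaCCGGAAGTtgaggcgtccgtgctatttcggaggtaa
Ddx18: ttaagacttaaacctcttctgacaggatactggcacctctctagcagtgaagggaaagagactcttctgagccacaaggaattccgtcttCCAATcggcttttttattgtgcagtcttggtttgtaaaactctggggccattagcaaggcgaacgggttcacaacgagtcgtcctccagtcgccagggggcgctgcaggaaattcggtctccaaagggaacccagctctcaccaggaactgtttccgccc

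Dhx34 carried 2 CCAAT boxes, 1 NRF1 palindrome and 1 ETS-type motif here, and Ddx18 carried 1 CCAAT match. Over the tested members, the median coefficient of variation between libraries was 3.49% in shControl and 3.96% in shArl4c. Over all tested genes it was 5.27% and 6.97%. Genes of like level were not compared, and the median shControl level of the listed members was 66.7 CPM. The lower spread is therefore not read as a trait of the family.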

How the data were processed

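The authors deposited 1 table of CPM values per gene and library. Column sums ran from 969971 in shArl4c 3 to 1019097 in shControl 3, so a scaling beyond library size was applied. Trimmomatic 0.38, RSEM 1.3.0, Bowtie2, edgeR and build GRCm39 are named in the submitters' processing notes, without order or settings. The sources used here do not state if counting used strand. Columns named shluc were taken as shControl and those naming the Arl4c hairpin as shArl4c, each tied to a group only. All deposited values (100%) were whole multiples of 1 read within 0.001, so reads were recovered. Of 22032 identifiers, 21880 matched a symbol. A mean of 1 CPM or more over the libraries was required, and such genes were fitted on log2(CPM + 1) with limma 3.58.1 (R 4.3.3; intensity trend, robust moderation, no covariate), with Benjamini-Hochberg adjustment over all tested genes. Fold changes on that scale understate those of low genes. The steps were run on simulated data with the same dispersion for every gene, few changed genes and no difference in scaling between libraries. That run does not show how well they work on the libraries here. Alternatives included edgeR 4.0.16 and DESeq2 1.42.0 on recovered reads. A count of 0 allows 3 reads, or 0.202 to 0.248 CPM, for counting error only. Members, role groups and lists were chosen with earlier results of these data known. Values per library are given for members past the threshold with a mean at least 25% above the other group's, the 2 members of each role with the smallest p, and near-identical pairs; Ddx10, Ddx50 and Dhx40, and the ratios of Ddx5 with Ddx17 and Ddx21 with Ddx50, were added after their values were seen. Of each related list the 3 smallest p are named.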

Additional observations from a re-analysis of the deposited data

How the results depend on the processing

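Each count was recomputed under 18 alternatives. The number of members called higher was 13 and became 24 with plain CPM (where 23.2% of all genes tested were called higher), 20 with array weights (24.7%), 12 with edgeR (17.4% of all genes) and 9 with DESeq2 (13.6%). Leaving out 1 library gave 9 to 21, the highest without shArl4c 3. No member was called lower in any of the 18. The median log2 fold change of 0.09 became 0.12 with plain CPM and was 0.09 to 0.11 with 1 library left out. Of the 13 called members, 9 kept the call wherever they were tested (Ddx11, Ddx20, Dhx34, Dhx36, Ddx23, Ddx21, Ddx18, Ddx10 and Ddx39), and Ddx43, Ddx56, Ddx27 and Dhx15 lost it in some; none changed direction. Of 35 uncalled members, 12 were called in at least 1 alternative. The count of ribosome biogenesis members called higher ran from 3 to 9 and that of splicing members from 1 to 4. Over all alternatives, the counts higher ran from 0 to 2 for the DEAD box genes under other names, 2 to 5 for the other helicases, 1 to 5 for the G-patch proteins and 0 to 7 for the DEAD box partners. Apart from fewer samples in the left-out fits, the cause was not tested. No paired analysis was possible because the shArl4c columns are numbered 2 to 4 and the labels 1 to 3, so these columns could be tied to a group but to no numbered sample. Ddx43 and Ddx3y are limited by depth.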
